A study of Mus musculus with 10 samples.

Results

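This report describes 10 carbohydrate-binding receptors of tumour-associated macrophages: the CD209 genes Cd209a, Cd209b, Cd209d, Cd209e, Cd209f and Cd209g, the mannose receptor Mrc1, the galactose-type lectins Clec10a and Mgl2, and the glucan receptor Clec7a. They are 10 of the 46957 loci in each table and were found by gene symbol. The family was selected on the measured rise of Cd209e in JHU083 over vehicle, so the values of Cd209e are given as a description without a test. The other 9 members were added by name and function and come from the same comparison. Their p-values are therefore not independent evidence about the family.

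The macrophages came from tumours of BALB/cJ mice. 4T1, a mouse mammary carcinoma line, had been placed in the mammary fat pad. Vehicle mice received PBS (5 samples). The other mice received JHU083 at 1 mg/kg on days 7 to 13 (5 samples); JHU083 is a prodrug of the glutamine antagonist 6-diazo-5-oxo-L-norleucine. All tumours were taken on day 14. Live CD45+ CD11b+ F4/80+ cells lacking CD8, Ly6C and Ly6G were sorted, and polyadenylated RNA was sequenced. Both groups therefore share the strain, the tumour line and the sort. Age and sex of the mice were not given in the sources used here, nor whether each sample came from a separate mouse. The p-values thus measure the spread between these samples, which may be partly technical. In such bulk samples, a change in the share of cells that express a gene and a change in RNA per cell cannot be told apart.

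C-type lectin receptors are membrane proteins with a C-type lectin-like domain, through which many of them bind sugars in a calcium-dependent way. On macrophages and dendritic cells they take up glycoproteins and microbes, and some of them signal. The mouse Cd209 genes are relatives of human DC-SIGN, which recognises mannose- and fucose-containing glycans. Mrc1 encodes the mannose receptor CD206, an endocytic receptor widely used as a marker of alternatively activated macrophages. Clec10a and Mgl2 encode the galactose-type lectins CD301a and CD301b. Clec7a encodes Dectin-1, a receptor that binds beta-glucans of fungal cell walls without calcium and signals through the kinase Syk and the adaptor Card9.

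The 6 Cd209 members lie in 1 region of chromosome 8 (GENCODE M21, GRCm38), together with Cd209c, which was not a member. Cd209e lies on the minus strand at chr8:3847965-3854309. The start of Cd209d is 24246 bp from that of Cd209e, Cd209b 72535 bp, Cd209f 251526 bp and Cd209g 279789 bp to one side. Cd209a starts at -105325 bp, to the other side. Cd209g is on the plus strand, and the other Cd209 genes are on the minus strand. The start-site regions of Cd209a, Cd209d and Cd209e are shown because these 3 genes were the Cd209 members with complete separation of the groups and the same order of JHU083 libraries. The sequences are from RefSeq (GRCm38.p6), from 250 bases before to 50 bases after the annotated start, on the minus strand, at chr8:3748935-3749234 for Cd209a, chr8:3878450-3878749 for Cd209d and chr8:3854237-3854536 for Cd209e. Capitals mark TTTCTCTTCCTA, the 12-base string that the 3 regions share.

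Cd209a: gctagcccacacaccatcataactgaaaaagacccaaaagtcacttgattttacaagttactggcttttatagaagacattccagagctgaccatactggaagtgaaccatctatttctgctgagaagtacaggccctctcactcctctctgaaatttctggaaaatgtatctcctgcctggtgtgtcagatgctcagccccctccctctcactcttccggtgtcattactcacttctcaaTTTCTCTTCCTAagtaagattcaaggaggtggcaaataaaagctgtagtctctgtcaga
Cd209d: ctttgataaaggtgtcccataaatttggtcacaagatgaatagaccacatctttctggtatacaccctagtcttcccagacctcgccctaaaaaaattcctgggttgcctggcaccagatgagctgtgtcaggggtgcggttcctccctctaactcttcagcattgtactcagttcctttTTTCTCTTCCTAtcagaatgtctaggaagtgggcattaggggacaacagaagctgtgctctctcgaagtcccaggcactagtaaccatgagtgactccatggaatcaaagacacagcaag
Cd209e: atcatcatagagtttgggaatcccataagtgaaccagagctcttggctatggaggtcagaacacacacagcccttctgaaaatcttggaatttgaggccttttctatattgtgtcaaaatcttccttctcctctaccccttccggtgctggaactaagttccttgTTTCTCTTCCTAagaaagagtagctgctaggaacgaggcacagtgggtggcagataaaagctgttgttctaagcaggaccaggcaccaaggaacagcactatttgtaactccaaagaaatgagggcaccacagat

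The shared string started 9 bases before the RefSeq start in Cd209a, 70 bases before it in Cd209d and 85 bases before it in Cd209e. The GENCODE M21 starts of Cd209d (chr8:3878555) and Cd209e (chr8:3854309) differ from the RefSeq starts, so these distances depend on the annotation. The string was the longest one present in all 3 regions. It was found by comparing these regions, so its presence in them was fixed by the search. Searched on both strands, it occurred in 8 of 27025 mouse regions of the same length (0.0296%), which include these 3. No other member with a start region held it, Cd209b included. The Cd209 genes are paralogues, and their start regions can share letters by descent. Of the other motifs searched on both strands, TTCNNNNGAA, the palindrome type bound by STAT6, was present in Cd209e and Clec7a and in 6.99% of all regions. The spacing TTCNNNGAA was present in 0 of the 9 members with a start region in the table and in 8.47% of all regions. GAGGAAG was present in Mrc1 and in 13.5% of all regions. TATAAA was present in Cd209a, Cd209f, Cd209g and Clec7a and in 14.2% of all regions. A match describes the letters and is not a measured binding site.

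Depth was 11147870 to 14575932 fragments in the vehicle libraries and 13638381 to 15740701 in the JHU083 libraries. Levels are given as CPM (fragment counts relative to the TMM-scaled library size). All 10 members passed the filter on low counts. Of the 12 macrophage markers, 12 were tested, 5 were higher in JHU083 and 0 were lower; Adgre1, which encodes F4/80, rose from 595 ± 39.3 to 922 ± 39.3 CPM (SD, n = 5; log2 fold change 0.63 ± 0.07 SE, edgeR adjusted p = 2.18e-05). The ribosomal RNA locus Rn18s-rs5 was listed at 0 in 3 vehicle libraries (replicates 2, 4 and 5) and in 2 JHU083 libraries (replicates 1 and 3). Member values within each of these classes are given beside the members.

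Across the 9 members other than Cd209e, 5 were higher with JHU083, 1 was lower and 3 did not pass the test (edgeR quasi-likelihood test, adjusted p under 0.05). Among all 12500 tested loci, 18.4% were higher and 18.3% were lower; when libraries were scaled by their totals only, the counts of loci changed from 2296 higher and 2293 lower to 1564 higher and 3141 lower. The 5 higher members were Cd209a, Cd209b, Cd209d, Mrc1 and Clec7a, and the lower one was Mgl2. The median log2 fold change of the 9 members was 0.78, against 0.01 for all tested loci. In 3 of the 9, Cd209a, Cd209d and Clec7a, every JHU083 library lay above every vehicle library, which was the case for 11.2% of tested loci. In 0 of the 9 did every JHU083 library lie below, which was the case for 11.1% of tested loci.

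**Figure D1:**
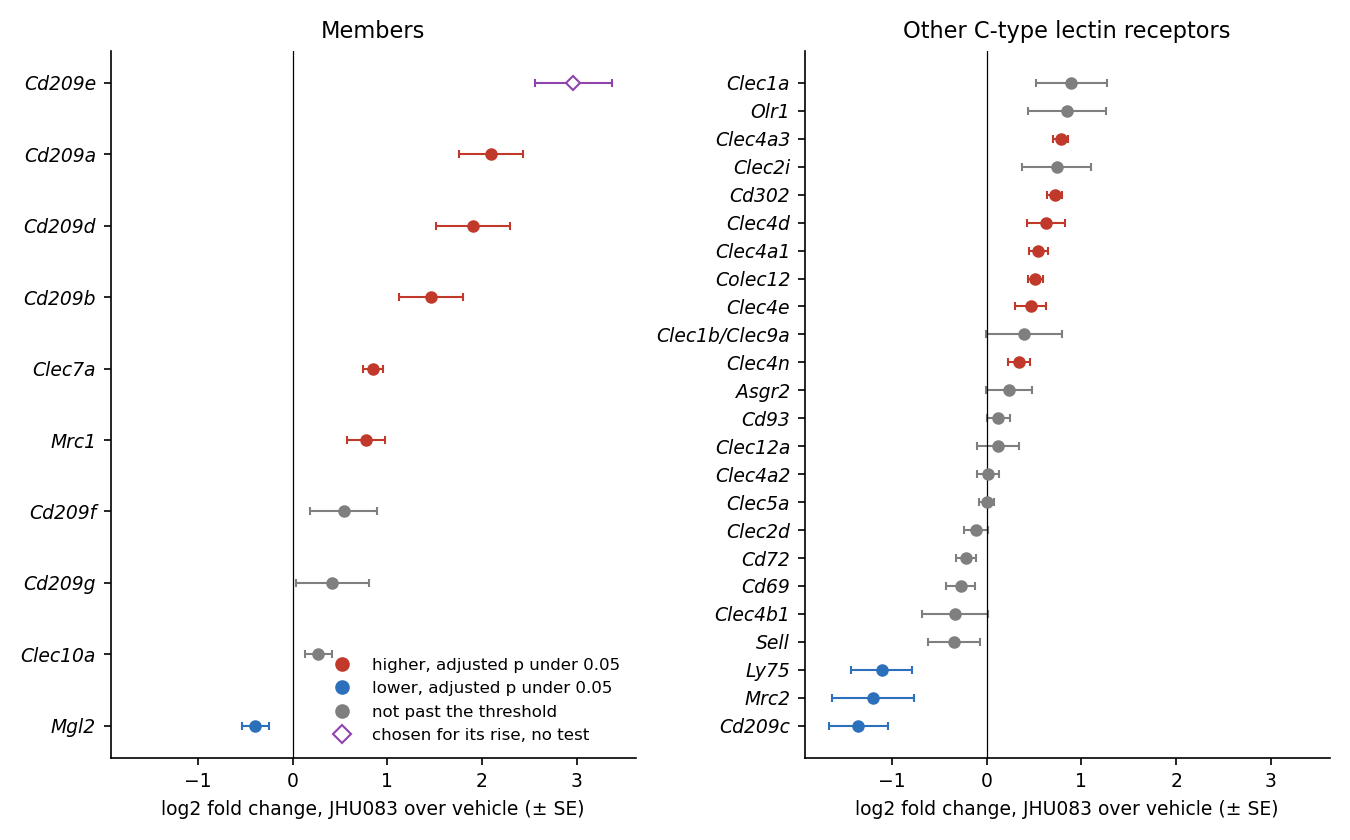
Log2 fold change of JHU083 over vehicle with its standard error (x axis) for the 10 members (left) and for the 24 tested loci of the other C-type lectin receptors (right). Red and blue points passed the edgeR test at an adjusted p under 0.05, grey points did not, and the open diamond is Cd209e, given without a test; Mgl2 is the one member below 0.

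Cd209e, the gene that led to the choice of the family, encodes a DC-SIGN relative (SIGNR4). Its level in the vehicle libraries 1 to 5 was 2.24, 2.51, 3.47, 2.52 and 2.11 CPM, from 27 to 46 fragments. In the JHU083 libraries 1 to 5 it was 5.46, 26.9, 11.7, 34.3 and 22.3 CPM, from 80 to 449 fragments. All JHU083 libraries lay above all vehicle libraries, but the lowest JHU083 library stood nearer to the vehicle range than to the highest JHU083 library. The group means were 2.57 ± 0.53 and 20.1 ± 11.6 CPM (SD, n = 5). The log2 fold change was thus 2.96 ± 0.41 (SE), or 7.80-fold. When each library was left out in turn, the log2 fold change of Cd209e ranged from 2.69 to 3.21.

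Cd209a, the mouse gene usually taken as the closest relative of DC-SIGN and known as a marker of monocyte-derived dendritic cells, showed the next largest rise. Vehicle libraries 1 to 5 held 1.70, 1.30, 1.96, 2.26 and 1.25 CPM, from 16 to 26 fragments. JHU083 libraries 1 to 5 held 2.80, 8.77, 4.85, 11.8 and 7.99 CPM, from 41 to 154 fragments. The groups did not overlap, and replicate 1 of JHU083 was again the lowest of its group. The means were 1.69 ± 0.43 and 7.24 ± 3.50 CPM (SD, n = 5). This gave a log2 fold change of 2.09 ± 0.34 (SE) with an edgeR adjusted p of 0.000363.

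Cd209d encodes another mannose-type family member (SIGNR3). Its vehicle libraries held 1.56, 0.99, 1.21, 1.56 and 1.96 CPM, from 13 to 25 fragments. Its JHU083 libraries held 2.18, 7.27, 3.06, 10.6 and 4.32 CPM, from 32 to 138 fragments. The groups did not overlap, although the gap between them was narrow, with JHU083 replicate 1 just above vehicle replicate 5. Mean Cd209d levels were 1.46 ± 0.37 and 5.48 ± 3.43 CPM (SD, n = 5), and the log2 fold change was 1.90 ± 0.39 (SE, edgeR adjusted p = 0.00196).

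Cd209b encodes SIGNR1, a receptor of marginal zone macrophages in the spleen that binds capsular and dextran-type polysaccharides. In vehicle it was at 2.72, 0.84, 0.98, 1.30 and 2.04 CPM. In JHU083 it was at 2.86, 4.94, 2.61, 5.96 and 5.57 CPM. JHU083 replicate 3 lay below vehicle replicate 1, and the other 4 JHU083 libraries lay above all vehicle libraries. Mean Cd209b levels were 1.57 ± 0.79 and 4.39 ± 1.55 CPM (SD, n = 5), and the rise on the log2 scale was 1.46 ± 0.33 (SE, edgeR adjusted p = 0.00395).

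Cd209f and Cd209g, the members farthest from Cd209e on the chromosome, did not pass the test. Cd209f held 0.75 to 3.26 CPM in vehicle (median 2.06) and 1.57 to 4.46 CPM in JHU083 (median 3.14). Cd209g held 1.21 to 3.52 CPM in vehicle (median 1.39) and 1.42 to 4.89 CPM in JHU083 (median 2.66). For both genes the groups overlapped, with 2 of 5 JHU083 libraries above all vehicle libraries. Their log2 fold changes were 0.54 ± 0.35 for Cd209f (SE, edgeR adjusted p = 0.246) and 0.42 ± 0.39 for Cd209g (SE, edgeR adjusted p = 0.417). With each library left out in turn they ranged from 0.33 (without vehicle replicate 3) to 0.78 for Cd209f and from 0.14 (without JHU083 replicate 4) to 0.67 for Cd209g. Transcripts of Cd209f and Cd209g were 92.1% identical over 1157 aligned bases and shared 433 windows of 50 bases, 34.9% of those of Cd209f and 38.7% of those of Cd209g. Their log2 fold changes within the libraries with Rn18s-rs5 at 0 were 0.19 for Cd209f and -0.016 for Cd209g, and within the others 0.74 and 0.62; neither gene passed in either class. How the authors' counting divided fragments between these 2 genes is not given, so their separate levels are uncertain. Cd209a, Cd209b, Cd209d and Cd209e shared 0 such windows with any other Cd209 gene.

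**Figure D2:**
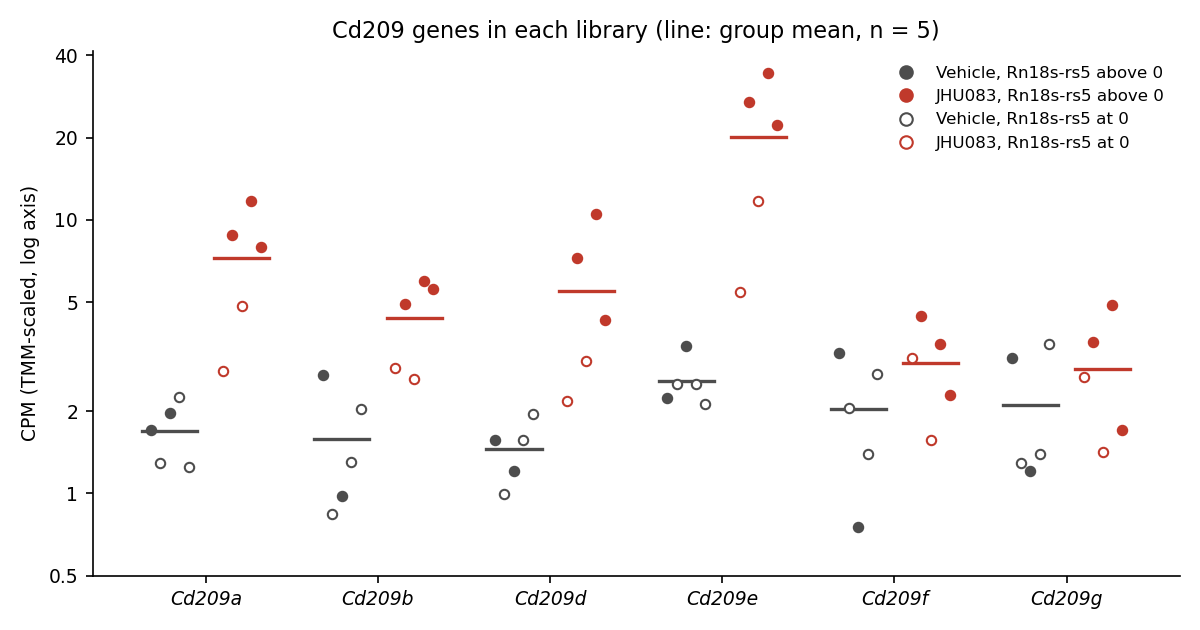
TMM-scaled CPM on a log axis (y axis) of the 6 Cd209 members in each of 5 vehicle (grey) and 5 JHU083 (red) libraries, with lines at the group means; open circles are libraries with Rn18s-rs5 listed at 0. The groups are separate for Cd209a, Cd209d and Cd209e and overlap for Cd209b, Cd209f and Cd209g.

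The JHU083 libraries fell in the same order for Cd209a, Cd209d and Cd209e, with replicate 4 highest, followed by 2, 5, 3 and 1. Cd209b differed from that order in the place of replicates 2 and 5 and of replicates 1 and 3. The 2 JHU083 libraries with Rn18s-rs5 at 0 were the 2 lowest for Cd209a, Cd209b, Cd209d and Cd209e. Within the libraries with Rn18s-rs5 at 0 (3 vehicle, 2 JHU083), the log2 fold change was 1.85 for Cd209e, 1.26 for Cd209a (edgeR adjusted p = 0.0889), 0.98 for Cd209b (adjusted p = 0.191) and 0.80 for Cd209d (adjusted p = 0.261). Within the libraries with Rn18s-rs5 above 0 (2 vehicle, 3 JHU083), it was 3.29 for Cd209e, 2.37 for Cd209a (edgeR adjusted p = 0.000306), 1.54 for Cd209b (adjusted p = 0.0135) and 2.39 for Cd209d (adjusted p = 0.00192). The log2 fold changes of these 4 genes were above 0 in both classes, and Cd209a, Cd209b and Cd209d did not pass the test where Rn18s-rs5 was at 0; the difference between the classes was not tested. With the status of Rn18s-rs5 as a covariate, the log2 fold changes were 1.84 for Cd209a, 1.28 for Cd209b, 1.63 for Cd209d and 2.61 for Cd209e.

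The makeup of the signal of the 6 Cd209 members shifted along with its size. Cd209e gave 15.3%, 28.0%, 36.2%, 24.2% and 15.5% of the fragments of the 6 Cd209 members in vehicle libraries 1 to 5. It gave 28.6%, 48.2%, 46.4%, 48.3% and 50.4% in JHU083 libraries 1 to 5. In 4 of 5 JHU083 libraries its share lay above the vehicle range, and in replicate 1 it lay inside. These shares rest on 118 to 215 fragments of the 6 members per vehicle library and 280 to 929 per JHU083 library. They include the value that chose the family. They leave out Cd209c, which had 36 to 104 fragments in vehicle libraries and 14 to 30 in JHU083 libraries.

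**Figure D3:**
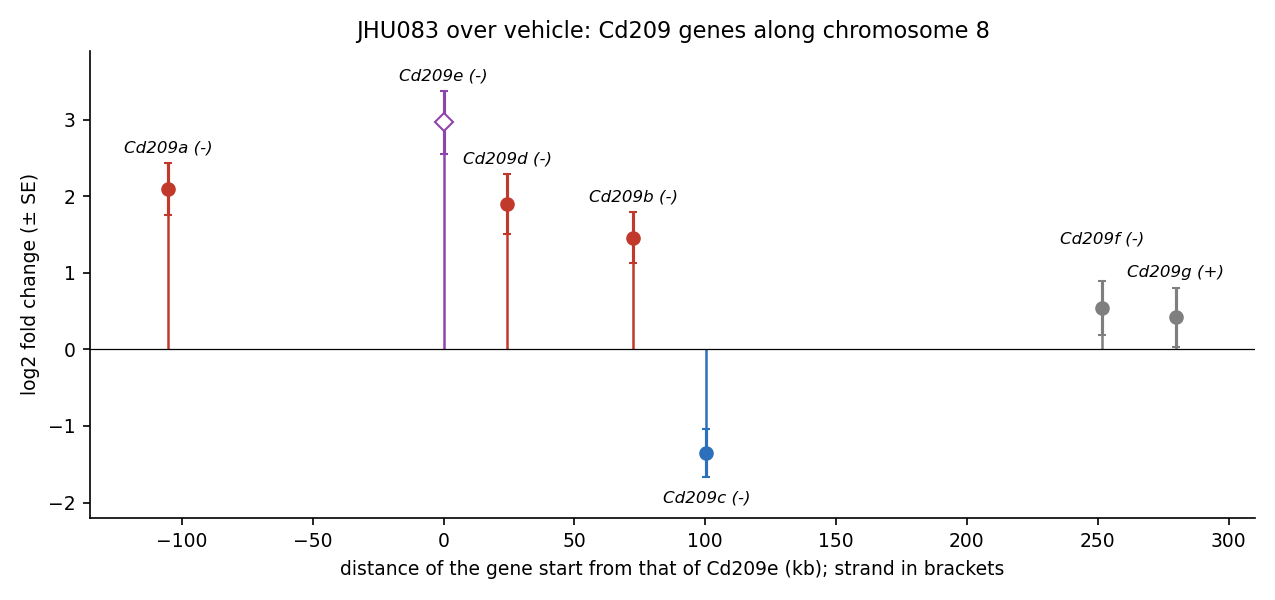
Log2 fold change of JHU083 over vehicle with its standard error (y axis) for the 7 Cd209 genes placed by the distance of their start from that of Cd209e in kb (x axis), with the strand in brackets. Cd209a, Cd209b and Cd209d are above 0 (red, passed the test), Cd209c is below 0 (blue, passed the test), Cd209f and Cd209g did not pass (grey), and the open diamond is Cd209e, given without a test.

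Cd209c stood apart from its neighbours. It held 3.26, 7.92, 3.70, 3.30 and 2.82 CPM in vehicle libraries 1 to 5 and 1.30, 2.06, 1.04, 2.29 and 1.51 CPM in JHU083 libraries 1 to 5. All JHU083 libraries lay below all vehicle libraries. The log2 fold change was -1.36 ± 0.32 (SE, edgeR adjusted p = 0.00436), opposite in sign to that of Cd209b, the nearest other Cd209 gene. The deposited FPKM of Cd209c overlapped between the groups, at 1.94 to 5.63 in vehicle and 0.920 to 2.97 in JHU083.

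Mrc1 was by far the most abundant member by CPM and gave 54.5% to 76.2% of all member fragments in each library. Its vehicle libraries held 956, 1376, 2040, 1684 and 1086 CPM. Its JHU083 libraries held 2010, 2958, 1846, 2512 and 2903 CPM. In JHU083, 3 of 5 libraries lay above every vehicle library, and replicates 1 and 3 lay below the highest vehicle library. The means of the groups were 1428 ± 442 and 2446 ± 506 CPM (SD, n = 5), and Mrc1 rose by 0.78 on the log2 scale with an error of 0.20 (SE, edgeR adjusted p = 0.00754), or 1.71-fold. Within the libraries with Rn18s-rs5 at 0 the log2 fold change of Mrc1 was 0.48 (edgeR adjusted p = 0.124), and within the others it was 0.90 (adjusted p = 0.0233).

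Clec7a rose in every JHU083 library relative to every vehicle library. It held 420, 465, 494, 476 and 417 CPM in vehicle and 733, 635, 872, 971 and 870 CPM in JHU083. The lowest JHU083 library, replicate 2, lay above the highest vehicle library. The means were 454 ± 34.4 CPM for vehicle and 816 ± 132 CPM for JHU083 (SD, n = 5), and the log2 fold change was 0.84 ± 0.11 (SE, edgeR adjusted p = 4.81e-05), or 1.80-fold. It also passed the test within the libraries with Rn18s-rs5 at 0 (log2 fold change 0.83, edgeR adjusted p = 0.00638) and within those above 0 (0.85, adjusted p = 0.0056). Of the 5 higher members, Clec7a was the only one past the threshold in both classes. GENCODE M21 places Clec7a on the minus strand at chr6:129461591-129472779 and classes it as a polymorphic pseudogene of the reference strain, which is not the strain used here.

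Mgl2 was the single member that fell. Vehicle libraries 1 to 5 held 334, 342, 375, 337 and 350 CPM. JHU083 libraries 1 to 5 held 187, 201, 271, 355 and 309 CPM. In JHU083, 4 of 5 libraries lay below the vehicle range and replicate 4 lay inside it, so that the spread was wider than in vehicle. Mean Mgl2 levels were 347 ± 16.7 and 264 ± 71.1 CPM (SD, n = 5), and the log2 fold change was -0.39 ± 0.14 (SE, edgeR adjusted p = 0.0457). The call was lost in 7 of 10 fits that left out 1 library: each of the 5 vehicle libraries and JHU083 replicates 1 and 2. Over the 10 fits the log2 fold change ranged from -0.52 to -0.29 and the edgeR adjusted p from 0.0090 to 0.107. The log2 fold change of Mgl2 was -0.58 within the libraries with Rn18s-rs5 at 0 (edgeR adjusted p = 0.0514) and -0.30 within the others (adjusted p = 0.277).

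Clec10a, the neighbour of Mgl2 on chromosome 11, did not pass the test. It held 29.5, 22.1, 24.8, 26.5 and 30.2 CPM in vehicle and 25.4, 31.6, 27.5, 45.5 and 30.9 CPM in JHU083. The groups overlapped, with 3 of 5 JHU083 libraries above the vehicle range by small margins except in replicate 4. The log2 fold change was 0.27 ± 0.14 (SE, edgeR adjusted p = 0.155). Without JHU083 replicate 4 it was 0.12 (edgeR adjusted p = 0.450). It was 0.014 within the libraries with Rn18s-rs5 at 0 (edgeR adjusted p = 0.968) and 0.40 within the others (adjusted p = 0.127). Mgl2 lies at chr11:70130329-70137550 and Clec10a at chr11:70156197-70170834, both on the plus strand (GENCODE M21, GRCm38).

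The ratio of Mgl2 to Clec10a fragments, which does not depend on how libraries are scaled, was lower with JHU083. It was 11.3, 15.4, 15.1, 12.7 and 11.6 in vehicle libraries 1 to 5 and 7.33, 6.36, 9.83, 7.79 and 9.98 in JHU083 libraries 1 to 5. The groups did not overlap. On the log2 scale the ratio differed by -0.69 (exact two-sided permutation test over all splits, p = 0.00794, the smallest it can give; adjusted over 3 ratios, 0.0238). With each library left out in turn the difference lay between -0.76 and -0.60. Within the libraries with Rn18s-rs5 at 0 it was -0.63, and within the others it was -0.72, where exact tests of 3 against 2 cannot go below p = 0.2. Transcripts of the 2 genes were 96.9% identical over 701 aligned bases and shared 242 windows of 50 bases, 13.5% of those of Mgl2 and 8.63% of those of Clec10a, so part of their fragments could be exchanged in counting.

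The other 2 ratios did not pass the test. Clec7a to Mrc1 was 0.337 ± 0.078 in vehicle and 0.348 ± 0.097 in JHU083 (SD, n = 5), a log2 difference of 0.03 (exact permutation p = 0.881, adjusted 0.881). Clec10a to Mrc1 was 0.0206 ± 0.0083 in vehicle and 0.0134 ± 0.0032 in JHU083 (SD, n = 5), a log2 difference of -0.55 (exact permutation p = 0.111, adjusted 0.167).

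**Figure D4:**
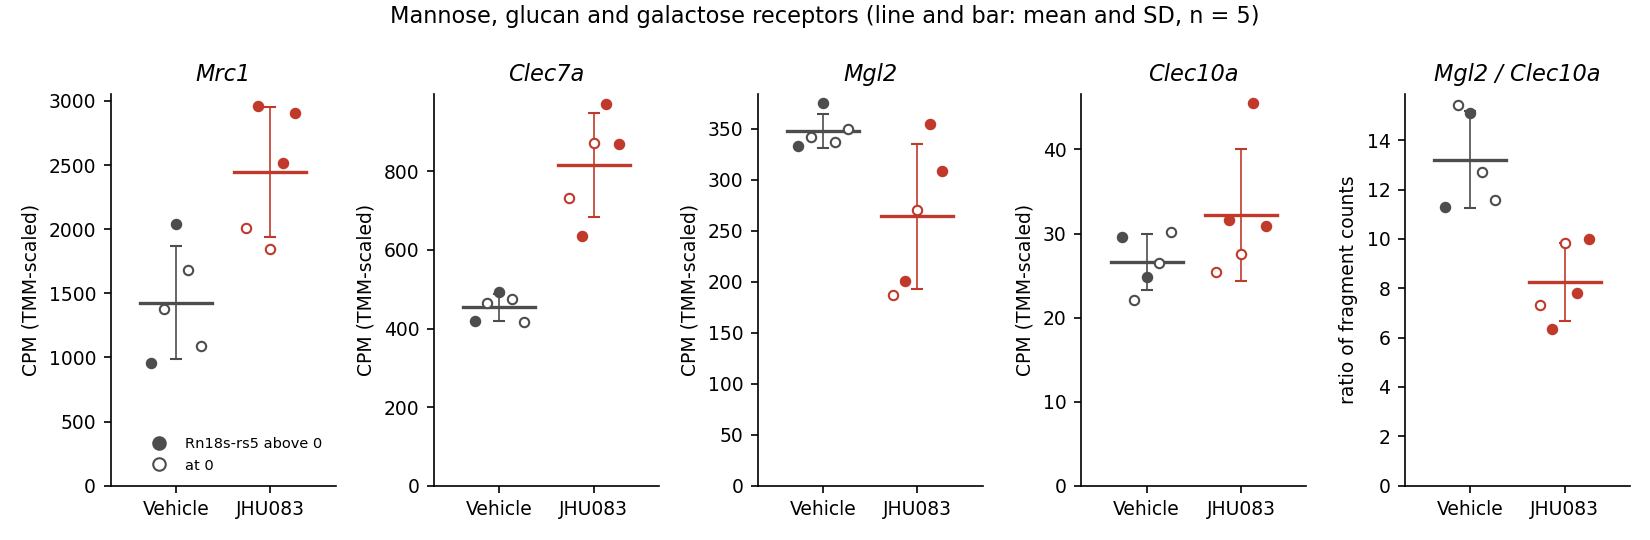
TMM-scaled CPM (y axes of the first 4 panels) of Mrc1, Clec7a, Mgl2 and Clec10a and the ratio of Mgl2 to Clec10a fragments (last panel) in each vehicle (grey) and JHU083 (red) library, with the mean and SD (n = 5); open circles are libraries with Rn18s-rs5 listed at 0. The groups are separate for Clec7a and for the ratio, and overlap for Mrc1, Mgl2 and Clec10a.

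Levels of different genes were compared on the deposited FPKM scale, which divides by length. In vehicle, Mrc1 (257 ± 79.6 FPKM), Mgl2 (244 ± 12.9) and Clec7a (228 ± 32.4; SD, n = 5) were highest, and their ranges overlapped. Clec10a followed at 19.8 ± 2.38 FPKM, outside the ranges of its neighbours. The 6 Cd209 members came last, from Cd209g at 1.97 ± 1.08 FPKM to Cd209b at 0.930 ± 0.335, each overlapping the next. Cd209c, which was not ranked, was at 3.06 ± 1.47 FPKM. Thus the Cd209 genes were minor lectin transcripts in these cells in the absence of the drug.

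In JHU083, Clec7a (453 ± 70.3 FPKM) and Mrc1 (439 ± 90.2) were highest and overlapped. Mgl2 came next at 186 ± 49.5 FPKM, below the ranges of both. Clec10a stood at 23.6 ± 5.57 FPKM. Cd209e moved from the eighth place to the fifth at 11.7 ± 6.74 FPKM, and its range overlapped that of Clec10a. Cd209d (7.34 ± 4.65 FPKM) and Cd209a (5.87 ± 2.49) followed, and Cd209b, Cd209f and Cd209g lay between 2.61 and 2.69 FPKM (means, n = 5). The FPKM of Clec7a gave a log2 difference of mean levels of 0.99, against 0.84 from fragments, while for the other members the 2 scales differed by less than 0.1.

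Genes with the profile most like each member over the 10 libraries were found among 10039 loci by the root mean square difference of centred log2 CPM. For Cd209e these were Retnla (0.39 log2 units), Rnase2a (0.41) and Igf1 (0.45). Retnla encodes a secreted protein long used as a marker of alternatively activated mouse macrophages, and Igf1 encodes insulin-like growth factor 1. Retnla held 2.51 to 4.78 CPM in vehicle and 13.1 to 44.0 CPM in JHU083, with replicates 1 lowest and 4 highest in both groups. Rnase2a, an eosinophil-type ribonuclease, held 27.8 to 73.9 CPM in vehicle and 128 to 558 CPM in JHU083. Igf1 held 11.5 to 35.7 and 59.5 to 175 CPM. These loci were selected for likeness to Cd209e, so their rise is a description.

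For Mrc1 the nearest loci were Dhrs9 (0.097), Ust (0.12) and Klhl24 (0.12). For Clec7a they were Dirc2, Dnajb9 and Smpdl3a (0.12 each), and for Clec10a they were Pcnx4 (0.14), Cnnm3 (0.15) and Tppp3 (0.15). For Mgl2 they were S100a10 (0.14), Anxa2 (0.15) and Arhgap10 (0.16); S100a10 and Anxa2 encode the subunits of 1 membrane-binding complex. Among the members themselves, Mrc1 and Clec7a were 0.35 apart, Cd209f and Cd209g 0.37, Cd209a and Cd209d 0.38, Cd209a and Cd209e 0.47, and Cd209d and Cd209e 0.67. Members at low counts have noisier profiles, so these distances are not comparable between abundant and rare genes.

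Of 36 other C-type lectin receptors, 35 were in the tables at 34 loci, and 24 loci were tested. In JHU083, 7 of the 24 were higher and 3 were lower, with a median log2 fold change of 0.18. The shares over all 12500 tested loci were 18.4% higher and 18.3% lower. The count of 7 fell to 4 without vehicle replicate 4, without JHU083 replicate 1, with the replicate number as a block and within the libraries with Rn18s-rs5 above 0, and was 9 with no filter on low counts. The count of 3 fell to 1 within either class of libraries. The largest increases by the naming rule were Clec4a3 (log2 fold change 0.78, edgeR adjusted p = 9.18e-06), Cd302 (0.72, adjusted p = 1.46e-05), Clec4d (0.63, adjusted p = 0.0249), Clec4a1 (0.54, adjusted p = 0.00102) and Colec12 (0.51, adjusted p = 0.000277). Clec4a1 and Clec4a3 belong to the DCIR group, Clec4d is a partner of the receptor Mincle, and Colec12 is a scavenger receptor. Besides Cd209c, the lower ones were Mrc2, a collagen-binding relative of Mrc1 (log2 fold change -1.20, edgeR adjusted p = 0.0416), and Ly75, the endocytic receptor DEC-205 (-1.11, adjusted p = 0.0149). The mean deposited FPKM of Mrc2 was 0.354 in vehicle and 0.310 in JHU083 (n = 5), a smaller difference than that from fragments.

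Of 16 adaptors and kinases used by lectin receptors, 4 were higher, beside 18.4% of all tested loci. Syk, the kinase downstream of Clec7a, rose from 208 ± 11.7 to 283 ± 16.5 CPM (SD, n = 5; log2 fold change 0.45, edgeR adjusted p = 0.000211). Src (0.32, edgeR adjusted p = 0.00388), Prkcd (0.31, adjusted p = 0.0056) and Bcl10 (0.23, adjusted p = 0.0249) were the others. Ptpn6, the phosphatase SHP-1, fell (-0.33, edgeR adjusted p = 0.0454). Card9 (-0.22, edgeR adjusted p = 0.116) and the signalling chain Fcer1g (-0.12, adjusted p = 0.255) did not pass. Galectins are soluble galactoside-binding lectins. Of 9 genes, namely galectins and the galectin ligand Lgals3bp, 5 were tested: Lgals8 was higher (0.24, edgeR adjusted p = 0.016), and Lgals1 (-0.42, adjusted p = 0.00642) and Lgals3bp (-0.22, adjusted p = 0.0308), were lower.

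Markers of other cells that can express these lectins were summed beside the members. The 12 dendritic cell markers summed to 72.4 to 118 CPM in vehicle and 62.2 to 107 CPM in JHU083. Fscn1 (28.5 CPM) and Cd24a (27.5 CPM) had the largest vehicle means, and Batf3 (16.0 CPM) followed. Flt3, Zbtb46 and Xcr1 had vehicle means of 1.12, 1.27 and 0.63 CPM. Of 10 tested, 1 was higher (Ccl22, log2 fold change 0.79, edgeR adjusted p = 0.0152) and 1 lower (Fscn1, -1.42, adjusted p = 0.00022). The 10 resident-type macrophage markers summed to 1092 to 1634 and 1352 to 1927 CPM; of 9 tested, 4 were higher (log2 fold changes of Vsig4 2.56, Gas6 0.74, Siglec1 0.47 and Cbr2 0.39) and 1 lower (F13a1, -0.30), with Marco at 0 throughout. Vsig4, a complement receptor of resident macrophages, rose from 1.04 ± 0.35 to 6.22 ± 2.57 CPM (SD, n = 5; edgeR adjusted p = 6.43e-05). The 7 monocyte markers summed to 5893 to 7291 and 7705 to 9820 CPM, most of it Fn1 (log2 fold change 0.49, edgeR adjusted p = 0.00438), and Chil3 also rose (2.08, adjusted p = 0.00374).

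The 8 eosinophil markers summed to 9.63 to 20.7 CPM in vehicle and 22.5 to 45.7 CPM in JHU083 without overlap. Most of the mean sum was Alox15, with 7.26 of 13.9 CPM in vehicle and 18.8 of 29.5 CPM in JHU083. Of 4 tested, 2 rose (Alox15, log2 fold change 1.37, edgeR adjusted p = 0.000173, and Siglecf, 0.89, adjusted p = 0.0115). The other tested markers, the granule gene Prg2 (1.27 ± 0.58 and 2.27 ± 1.79 CPM, SD, n = 5; log2 fold change 0.81, edgeR adjusted p = 0.196) and the chemokine receptor Ccr3 (1.72 ± 1.09 and 2.12 ± 1.44 CPM; 0.29, adjusted p = 0.659), did not pass. Of the untested markers, the granule gene Epx had at most 5 fragments in any library, Il5ra at most 9, and Ear6 and Rnase2b at most 1. The 9 neutrophil markers summed to 93.1 to 104 and 94.4 to 146 CPM; 1 of 5 tested rose (Csf3r, log2 fold change 0.53) and 2 fell (S100a8, -1.40, and S100a9, -2.18). The 10 lymphoid markers summed to 14.9 to 19.0 and 12.6 to 17.5 CPM, and 1 of 2 tested rose (Cd79b, log2 fold change 0.51). All 9 tumour epithelial markers fell, from a sum of 300.2 to 654 CPM to one of 103 to 220 CPM, and 6 of 10 tested fibroblast and endothelial markers fell, from 247 to 384 CPM to 91.9 to 169 CPM. The part of these cell types in the lectin levels was not tested.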

How the data were processed

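RNA of sorted macrophages was sequenced as paired-end poly(A) libraries (5 vehicle, 5 JHU083), prepared with a kit for which the labels state no strand selection. Per the submitters' processing notes, bcl2fastq 2.17.1.14, FastQC 0.11.2, TopHat2 2.1.1 and the build GRCm38 were used; the counting program and annotation are not given in the sources used here. The authors deposited a count column headed as raw that holds fractional numbers, and it was entered in the unit class of expected counts for that reason alone; how it was made is not given in the sources used here. The values are whole multiples of 1 step per sample (0.888 to 1.17): 99.1% to 99.4% of positive values became whole within 0.02 after division by it. Fragment counts are these quotients, rounded to whole numbers; that they are the original counts was inferred. The authors also deposited a normalized column, which from its values is FPKM; it was used only to order genes by level and as a check on scale.

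Loci without a symbol (0.00169% of fragments) were left out, and 1060 of 46957 loci list several symbols. Loci were filtered with filterByExpr (12500 tested), scaled with TMM and compared by quasi-likelihood testing (edgeR 4.0.16, R 4.3.3), with Benjamini-Hochberg adjustment over all tested loci at 0.05. Log2 CPM for profile distances had a prior count of 2. Ratios were tested on log2 fragments plus 0.5 by exact permutation. Motifs, positions and transcripts came from RefSeq GRCm38.p6 and GENCODE M21 by symbol; 9 of 10 members had a start region and 10 of 10 a gene. Python 3.11.15, numpy 2.4.6, pandas 2.3.3, scipy 1.17.1 and matplotlib 3.10.9 were used.

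The members and lists were chosen with earlier results of these data known. The named genes are all members; of each other list up to 5 called genes of largest change in each direction, with Syk, Card9 and Fcer1g always; and the 3 nearest loci for Cd209e and for other members with an average log2 CPM of at least 2. For the marker lists, only some of the called genes are named in the text. A gene of the signalling list is not reported here. Alternatives were DESeq2 1.42.0 as size factors and as a test, limma-voom (limma 3.58.1), library size only, no filter, deposited values rounded, Rn18s-rs5 and Gm42418 left out, Rn18s-rs5 status as a covariate or within each class, loci listing 1 symbol, the replicate block, leaving out each library, and, for ratios, a pseudocount of 1 or FPKM.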

Additional observations from a re-analysis of the deposited data

How the results depend on the processing

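The counts of loci, members and other C-type lectin receptors and the fold changes of the members were recomputed under 22 alternatives, and the 3 ratios under 15; Cd209c, the signalling genes, galectins and cell markers were not. The count of 5 higher members held in all of them except within the libraries with Rn18s-rs5 at 0 (3 vehicle, 2 JHU083), where 1 member was higher, Clec7a. There 0 members were lower, 532 loci were higher and 586 lower, 1 other C-type lectin receptor was lower, the Mgl2 to Clec10a log2 difference was -0.63 (adjusted exact p = 0.3), and the log2 fold change of Cd209g turned to -0.016. Within the libraries with Rn18s-rs5 above 0 (2 vehicle, 3 JHU083), 0 members were lower, 1335 loci were higher and 1518 lower, 4 other receptors were higher and 1 lower, the Mgl2 to Clec10a difference was -0.72 (adjusted exact p = 0.6) and the Clec7a to Mrc1 difference turned to -0.16. Both classes hold fewer samples; any further cause was not tested.

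Same-numbered samples did not deviate together (correlations -0.57 to 0.09), so the numbers were not taken to pair them. With the replicate block, 1612 loci were higher and 1757 lower, 4 other receptors were higher, and the members kept their calls. The Mgl2 to Clec10a difference in the replicate block was -0.69, with the smallest p of 0.0625 that 5 pairs allow (adjusted 0.1875).

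Leaving out 1 library gave 5 higher members in each of 10 fits and 0 to 1 lower. The other receptors ranged from 4 to 7 higher and 2 to 3 lower (4 higher without vehicle replicate 4 or without JHU083 replicate 1), and the Clec7a to Mrc1 difference from -0.10 to 0.19. The Cd209 members rest on few fragments (medians over all libraries 28.5 to 63), which limits the precision of their values; how small a difference could be detected was not tested.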

Other observations

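Cd209c, the neighbour of Cd209b that lies outside the chosen members, gave different answers on the 2 deposited scales. By fragments it was 2.56-fold lower with JHU083 (edgeR adjusted p = 0.00436), with 36 to 104 fragments in vehicle libraries and 14 to 30 in JHU083 libraries. The mean deposited FPKM was 3.06 ± 1.47 in vehicle and 2.13 ± 0.82 in JHU083 (SD, n = 5), a log2 difference of -0.52. The ratio of deposited count to FPKM, which is constant for a gene of fixed length, was 17.7 to 19.6 in vehicle and 9.58 to 15.3 in JHU083. For Cd209e the same ratio stayed between 23.3 and 23.5 in all 10 libraries. For Cd209b it ranged from 13.9 to 26.9 in vehicle and from 17.8 to 25.9 in JHU083, so a varying ratio was not particular to Cd209c, but in Cd209c it did not overlap between the groups. What the ratio reflects was not tested.

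Among the 26 sets of 5 values checked by Dixon's test, 0 held a library beyond the critical value. JHU083 replicate 1 was still the lowest of its group for Cd209a, Cd209d, Cd209e, Clec10a and Mgl2. Cd209c was not among these sets. Its vehicle replicate 2 held 7.92 CPM, against 2.82 to 3.70 CPM in the other vehicle libraries.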
